A study of Mus musculus with 20 samples.

Results

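The genes described here encode the machinery of MHC class I antigen presentation in the mouse colon, and they were chosen by name. Earlier results of these data were known when they were chosen. The list held H2-K1, H2-D1, B2m, Tap1, Tap2, Tapbp, Psmb8, Psmb9, Psmb10, and Nlrc5. Of these 10 genes, 9 were analysed, in a table of 12701 genes, and Nlrc5 was not analysed here. Proximal colon segments of 20 C57BL/6 mice, an inbred laboratory strain, were sequenced with 1 library per mouse. For 6 weeks, starting at 3 weeks of age, every mouse was fed the Total Western Diet (TWD), which copies in a rodent feed what people in the United States typically eat. For 3 more weeks this feed contained 0, 2, 5, or 10% resistant potato starch (RPS), a raw starch that bacteria of the large intestine ferment. Each diet had 5 libraries, and the mice on 0% RPS, which stayed on the TWD alone, were the controls. The question asked of these genes was whether adding starch to the TWD changed their level in the colon wall. Libraries held 20581013 to 35083751 counts, with a median of 26354926. Of 14 epithelial markers analysed, none was at 0 counts in any library, and the smooth muscle, stromal, and leukocyte markers analysed had counts too. The filter behind the analysed genes is not given and may itself have removed genes at 0 counts.

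Class I molecules display peptides from inside the cell to CD8 T cells, and nearly every nucleated cell carries them. Peptides are cut by the proteasome, which in cells exposed to interferon takes up 3 replacement catalytic subunits, encoded by Psmb8, Psmb9, and Psmb10, and is then called the immunoproteasome. TAP1 and TAP2 together form the transporter that carries peptides into the endoplasmic reticulum, where tapasin (Tapbp) holds the transporter next to an empty class I molecule. The class I molecule itself consists of a heavy chain (here H2-K1 or H2-D1) and beta-2-microglobulin (B2m). Colon epithelial cells, leukocytes, and stromal cells all make class I, so the level in whole tissue is a sum over them. Nlrc5 encodes the transactivator that works at class I promoters.

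Most of these genes lie together in the MHC on chromosome 17 (GRCm39). H2-K1 spans chr17:34214987-34219321 on the minus strand and H2-D1 chr17:35481691-35486475 on the plus strand. Tapbp lies at chr17:34134873-34148267, Psmb9 at chr17:34400960-34406738, Tap1 at chr17:34405996-34416199, Psmb8 at chr17:34416690-34420428, and Tap2 at chr17:34422501-34435829. Psmb9 is on the minus strand, and the other 4 of these are on the plus strand. B2m lies on chromosome 2 (chr2:121977957-121983594, plus strand) and Psmb10 on chromosome 8 (chr8:106662362-106665077, minus strand). All 9 genes are annotated as protein-coding, and values are summed over the whole gene rather than over single exons or isoforms.

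Class I promoters are known for a shared layout, with a site for NF-kB, a site for interferon regulatory factors (ISRE), and further down an X box that holds a CRE-like core, followed by a Y box, which is an inverted CCAAT box. Promoter sequence from RefSeq (GRCm38.p6) was matched by symbol for 8 of the 10 listed genes. The stretches below, from both heavy chains and the light chain, are shown because they hold the NF-kB, CRE-like, and inverted CCAAT parts of that layout. The ISRE core was searched as a fixed pattern of letters and was matched only in B2m. Looser forms of the ISRE were not searched, so the lack of a match does not show that H2-K1 or H2-D1 lacks this site. They run 5′ to 3′ along the strand of the gene. In order, capitals mark the ISRE core (in B2m only), the NF-kB consensus, the CRE core (TGACG), and last the inverted CCAAT box.
H2-K1 (chr17:34000349-34000468, minus strand): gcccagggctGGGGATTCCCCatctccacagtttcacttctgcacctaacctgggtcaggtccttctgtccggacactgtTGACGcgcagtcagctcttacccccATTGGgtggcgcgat
H2-D1 (chr17:35262913-35263032, plus strand): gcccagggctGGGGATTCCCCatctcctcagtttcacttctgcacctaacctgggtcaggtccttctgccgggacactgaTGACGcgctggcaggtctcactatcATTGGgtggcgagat
B2m (chr2:122147538-122147648, plus strand): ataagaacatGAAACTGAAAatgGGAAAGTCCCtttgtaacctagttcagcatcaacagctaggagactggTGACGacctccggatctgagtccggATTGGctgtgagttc

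The H2-K1 and H2-D1 stretches were identical at 108 of 120 bases (90.0%). In all 3 promoters TGACG stood 25 bases ahead of the inverted CCAAT box, counted from first base to first base. The NF-kB match stood 70 bases ahead of TGACG in both heavy chain genes and 48 bases ahead in B2m. Searched on both strands, this pair at this spacing occurred in 30 of 32851 RefSeq promoters (0.0913%), which belonged to 26 genes. Besides H2-K1, H2-D1, and B2m, these genes included H2-M3, another class I heavy chain. Alone the letters are common: in windows of 250 bases ahead of the start, TGACG was found in 17.8% of all promoters, CCAAT in 33.8%, the NF-kB consensus in 7.25%, and the ISRE core in 2.98%. In both heavy chain genes the capitals at the NF-kB site cover 2 overlapping matches, and the other marked matches do not overlap. A match describes letters only.

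By the RefSeq starts (GRCm38.p6), Tap1 and Psmb9 begin 226 bases apart on opposite strands. The interval between them is taken as the promoter of both and is shown for that reason. It runs along the Tap1 strand, with TGACG and CCAAT in capitals. By the GRCm39 coordinates given above, the annotated genes overlap. In Psmb8 the only match was to the interferon-gamma activated site (GAS), which 7.02% of all promoters hold, and it is in capitals in the second stretch.
Tap1 and Psmb9 (chr17:34187331-34187555, plus strand): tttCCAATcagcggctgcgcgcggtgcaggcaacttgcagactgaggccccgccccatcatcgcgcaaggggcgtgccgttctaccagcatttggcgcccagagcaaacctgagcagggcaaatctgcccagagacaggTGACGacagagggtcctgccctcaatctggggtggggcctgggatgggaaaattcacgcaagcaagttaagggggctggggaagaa
Psmb8 (chr17:34198068-34198136, plus strand): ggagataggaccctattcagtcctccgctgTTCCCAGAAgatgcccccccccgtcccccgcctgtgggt

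On TWD alone and with starch, the parts of the class I molecule were by far the highest members. Per kilobase of the canonical transcript, the mean level over the 20 libraries was 12985 normalised counts for H2-K1, 12451 for B2m, and 7372 for H2-D1. Normalised counts are counts divided by the size factor of each library. Psmb10 (2271 per kilobase) and Tapbp (1774 per kilobase) followed, then Psmb8 (359), Psmb9 (302), Tap2 (266), and Tap1 (158). In this order, H2-K1 and B2m overlapped over the libraries, and so did B2m and H2-D1. The ranges of H2-D1 (5897 to 9523 per kilobase) and Psmb10 (1861 to 3010 per kilobase) did not overlap. Among the proteasome subunits that the immunosubunits replace, Psmb6 stood at 2289 per kilobase, Psmb5 at 1335, and Psmb7 at 1266. Psmb10 was thus of the same order as the constitutive subunits, whereas the highest Psmb8 value (453 per kilobase) lay below the lowest Psmb7 value (1143 per kilobase). Within each pair, Tap2 was higher than Tap1 per kilobase in all libraries, with 207 as its lowest and 201 as the highest Tap1 value.

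A few of these genes were modestly higher with starch. At 10% RPS, H2-D1, Psmb8, and H2-K1 rose compared with 0% RPS. At 5% RPS, Psmb10, Psmb8, and H2-D1 rose, and at 2% RPS no member passed in DESeq2 or in edgeR (2 members, H2-D1 and Psmb10, had an unadjusted p under 0.05 in DESeq2, as 8.7% of all genes did). The threshold was an adjusted p of 0.05 in DESeq2, with Benjamini-Hochberg adjustment over all genes tested, and a gene at or below it is said to pass. Thus 3 of 9 members passed upward at 10% RPS, where 2.71% of all genes tested did, and 3 of 9 at 5% RPS, where 1.33% did. As the members were chosen with earlier results known, the shares set beside them, here and below, are a description only. At 2% RPS the share of all genes was 0.0239% in DESeq2 and 0.0% in edgeR. No member passed downward, where 0.0%, 0.573%, and 1.89% of all genes did at 2, 5, and 10% RPS. No member reached the 1.5-fold change that the study asks of a changed gene beside the adjusted p. Both conditions were met by 0.0239%, 0.438%, and 0.9% of all genes at these levels. The highest fold of a member was 1.44, for Psmb8 at 10% RPS. In bulk tissue, fewer cells of a type and less RNA per cell cannot be told apart, which holds for every value given here.

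**Figure D1:**
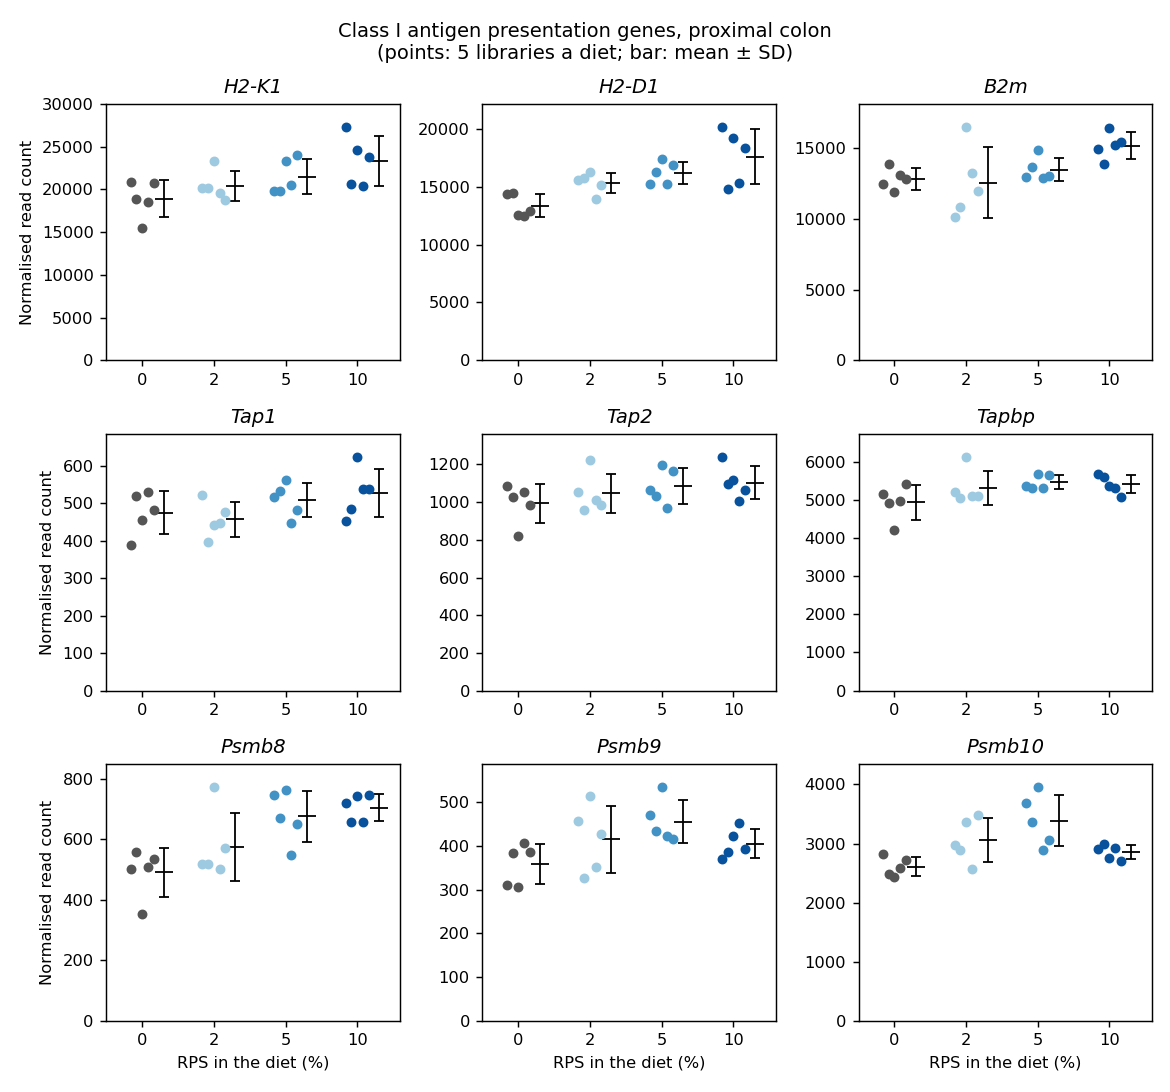
Normalised read counts (vertical axes, from 0) of the 9 members by percentage of RPS in the diet, with 1 point per library and a bar for the mean ± SD of 5 libraries. All H2-D1 points at 10% RPS (14805 to 20159) lie above the highest point at 0% RPS (14464), whereas the Psmb10 points are highest at 5% RPS.

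H2-D1, a classical heavy chain, gave the smallest adjusted p of the members. On 0% RPS its 5 libraries held 14360.1, 14464, 12586, 12483, and 12886 normalised counts. With 2% RPS they held 15567, 15752, 16271, 13898, and 15113 normalised counts. Only 1 library at 2% RPS lay below the highest control. With 5% RPS the values were 15230.1, 16231, 17392, 15192, and 16843 normalised counts, and with 10% RPS 20159, 14805, 19168, 15350, and 18378 normalised counts. All 5 libraries at each of these levels lay above all controls, and at 10% RPS 3 libraries were at 18378 or more and 2 at 15350 or less. The log2 change was 0.20 at 2% RPS (SE 0.082, adjusted p = 0.483), 0.28 at 5% RPS (SE 0.082, adjusted p = 0.0463), and 0.40 at 10% RPS (SE 0.082, adjusted p = 0.000555). With edgeR, H2-D1 was the only member that passed at 10% RPS (adjusted p = 0.0308), where 0.663% of genes passed upward, and no member passed at 5% RPS, where 0.089% did (H2-D1 adjusted p = 0.139). H2-D1 passed at 10% RPS in 10 of 10 fits that left out 1 library, but at 5% RPS in only 3 of 10.

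H2-K1, the other classical heavy chain, was higher on average at each level of starch. Its controls held 20858, 18870.3, 15516, 18566, and 20714 normalised counts, and 10% RPS gave 27283, 20577, 24617, 20396, and 23777 normalised counts. Thus 2 of the libraries at 10% RPS lay within the range of the controls. The mean ± SD over 5 libraries was 18905 ± 2162 without starch, 20374 ± 1757 with 2% RPS, 21479.7 ± 2020 with 5% RPS, and 23329.9 ± 2901 with 10% RPS. The log2 change at 10% RPS was 0.30 (SE 0.096, adjusted p = 0.0424), and edgeR did not call it (adjusted p = 0.111). It passed in 4 of 10 fits that left out 1 library, and was lost without 0% RPS replicate 3, 4, or 5 and without 10% RPS replicate 1, 3, or 5 (adjusted p up to 0.140). It was also lost without 2% RPS replicate 2 or 4 (adjusted p = 0.0542 and 0.0509), which enter the shared estimate of the spread. H2-K1 and H2-D1 share sequence, with each other and with the H2-Q genes: 11.3% of the 50-base windows of H2-K1 transcripts and 12.6% of those of H2-D1 also occur in other genes. How reads with several matches were counted is not stated, so a small part of each count is uncertain.

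B2m, the light chain that all class I heavy chains need, did not pass. Its controls held 12443, 13915, 11894, 13134, and 12817 normalised counts. At 2% RPS the spread was widest, with 10135, 10861, 16507, 13252, and 12008 normalised counts. At 10% RPS the libraries held 14926, 13854, 16469, 15257, and 15470.3 normalised counts, and 4 of these 5 lay above all controls. The log2 change was -0.03 at 2% RPS, 0.07 at 5% RPS, and 0.24 at 10% RPS (95% interval 0.05 to 0.44, adjusted p = 0.141). It passed at 10% RPS without 2% RPS replicate 3, the library at 16507, which enters the shared estimate of the spread. No 50-base window of B2m transcripts occurs in another gene.

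The transporter and tapasin, which load the peptide, did not pass at any level. In normalised counts (mean ± SD of 5 libraries), Tap1 was at 475 ± 56.8, 457 ± 46.3, 509 ± 44.9, and 527 ± 64.8 from the control diet to the highest starch level, and Tap2 at 995 ± 103, 1047 ± 104, 1086 ± 94.8, and 1103 ± 86.6. All starch diets overlapped the controls for both genes. At 10% RPS the log2 change was 0.15 for Tap1 (95% interval -0.06 to 0.35, adjusted p = 0.437) and 0.15 for Tap2 (95% interval -0.02 to 0.32, adjusted p = 0.343). Tapbp, at 4935 ± 449 normalised counts on 0% RPS (SD, n = 5), had a log2 change of 0.15 at 5% RPS (adjusted p = 0.226) and 0.13 at 10% RPS (adjusted p = 0.240). The upper end of the 95% interval for Tapbp at 10% RPS was 0.26. Tapbp overlaps Zbtb22 on the same strand, and 16.8% of its windows also occur in other genes, nearly all in Zbtb22.

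The immunoproteasome subunits were called at different levels of starch; the differences among them were not tested. Psmb8, whose product takes the place of the Psmb5 subunit, held 500.2, 558, 353, 508, and 534 normalised counts in the controls. At 5% RPS it held 746, 671, 762, 549, and 652 normalised counts, and at 10% RPS 720, 655, 743, 658, and 746 normalised counts. All libraries at 10% RPS, and 4 of 5 at 5% RPS, lay above all controls. The log2 change was 0.46 at 5% RPS (SE 0.132, adjusted p = 0.0369) and 0.52 at 10% RPS (SE 0.132, adjusted p = 0.00626). In edgeR it missed the threshold at both levels (adjusted p = 0.126 and 0.0510). Psmb8 passed at 10% RPS in 10 of 10 fits that left out 1 library and at 5% RPS in 3 of 10. Its 2% RPS libraries held 518, 517, 771, 501, and 571 normalised counts, of which replicates 3 and 5 lay above all controls.

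Psmb10, which replaces Psmb7, had its highest level at 5% RPS. Its controls held 2825, 2487, 2442, 2582, and 2715 normalised counts, and 5% RPS gave 3684, 3359, 3949, 2889, and 3063 normalised counts, all above the controls. The 10% RPS libraries, at 2909, 2988, 2757, 2919, and 2710.0 normalised counts, overlapped the controls. The log2 change was 0.23 at 2% RPS (adjusted p = 0.450), 0.38 at 5% RPS (SE 0.089, adjusted p = 0.00584), and 0.13 at 10% RPS (adjusted p = 0.423). The difference between 10 and 5% RPS was itself -0.25 on the log2 scale (SE 0.089, unadjusted p = 0.00574 from the DESeq2 fit) and did not pass after adjustment over all genes (adjusted p = 0.776). edgeR did not call Psmb10 at 5% RPS (adjusted p = 0.0645), and in DESeq2 the call was lost only without 5% RPS replicate 3 (adjusted p = 0.0554). Psmb9, which replaces Psmb6, likewise had its highest mean at 5% RPS (456 ± 48.5 normalised counts, against 359 ± 46.6 without starch, SD, n = 5 each). All 5 of those libraries (417 to 534) lay above all controls (305 to 406), but the log2 change of 0.35 (95% interval 0.11 to 0.58) did not pass (adjusted p = 0.105).

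**Figure D2:**
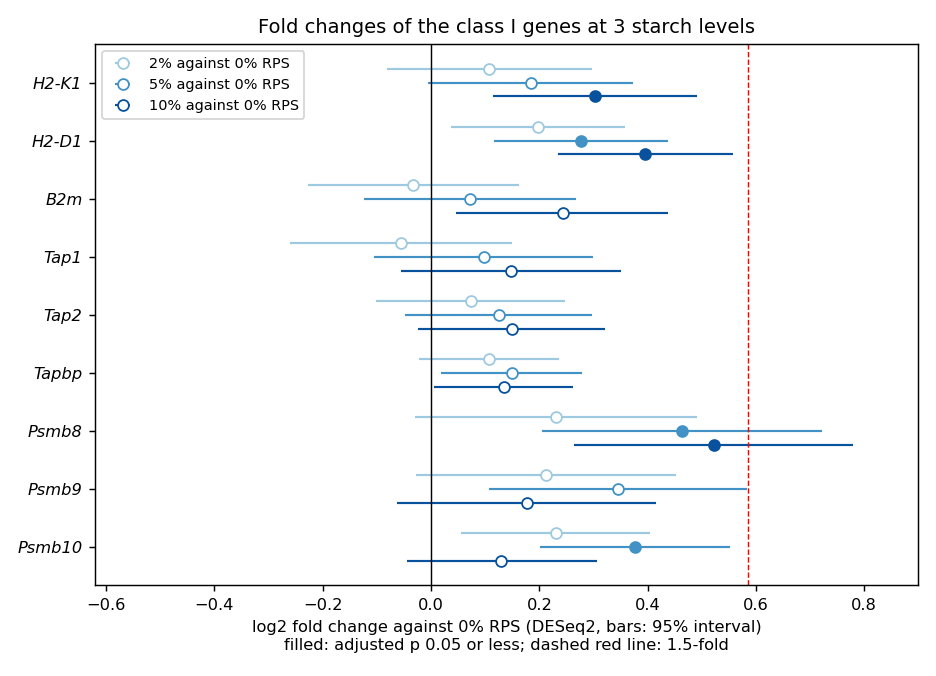
Log2 fold change against 0% RPS (horizontal axis) for each member at 2, 5, and 10% RPS, with 95% intervals from DESeq2 on 5 libraries per diet; filled points have an adjusted p of 0.05 or less and the dashed line marks 1.5-fold. The 6 filled points are H2-D1 and Psmb8 at 5 and 10% RPS, Psmb10 at 5% RPS, and H2-K1 at 10% RPS.

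Counted by the libraries alone, 3 of 9 members (H2-D1, Psmb9, and Psmb10) had every library at 5% RPS above every control, as 1.46% of all genes tested did. At 10% RPS these were 2 of 9 (H2-D1 and Psmb8), against 1.35% of all genes, and at 2% RPS none, against 0.478%. The median log2 change of the 9 members was 0.11 at 2% RPS, 0.18 at 5% RPS, and 0.18 at 10% RPS, while the median of all genes tested lay between -0.01 and 0.00. Means were above the control mean for 7 members at 2% RPS and for all 9 at 5 and 10% RPS. As the same 5 controls enter all 3 comparisons, these counts are not independent of each other.

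A linear trend over the percentage of RPS used all 20 libraries together. H2-D1, Psmb8, and H2-K1 passed upward (3 of 9 members, against 2.4% of all genes tested). Per added percentage point of RPS, the log2 level rose by 0.036 for H2-D1 (SE 0.008, adjusted p = 0.00138), by 0.050 for Psmb8 (SE 0.013, adjusted p = 0.0078), and by 0.029 for H2-K1 (SE 0.009, adjusted p = 0.0309). With edgeR, H2-D1 (adjusted p = 0.037) and Psmb8 (adjusted p = 0.0496) passed, where 0.754% of genes did. The slope of B2m was 0.027 (SE 0.009, adjusted p = 0.0654), and it passed in 3 of 20 fits that left out 1 library (0% RPS replicate 2, 2% RPS replicate 3, or 10% RPS replicate 2). H2-D1 and Psmb8 passed in all 20 such fits and H2-K1 in 16, being lost without 0% RPS replicate 4 and without 10% RPS replicate 1, 3, or 5. Between starch levels no member passed in DESeq2 or in edgeR. At an unadjusted p under 0.05 in DESeq2, there were 4 members between 10 and 2% RPS, 1 between 10 and 5% RPS, and 0 between 5 and 2% RPS. At that threshold were 9.0%, 4.11%, and 2.86% of all genes, while 0.143%, 0.0159%, and 0.0% of all genes passed after adjustment in DESeq2, and 0.0% in edgeR for each. The increase from 2 to 10% RPS was 0.28 on the log2 scale for B2m (adjusted p = 0.283), 0.29 for Psmb8 (adjusted p = 0.474), and 0.20 for H2-D1 (adjusted p = 0.402).

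To ask whether the immunosubunits moved relative to the subunits they replace, the log2 ratio of normalised counts was formed in each library and tested by exact permutation, two-sided, over all ways to divide the 10 libraries of a comparison. None of the 9 differences passed after adjustment over the 9 tests. The log2 ratio of Psmb8 to Psmb5 was -2.12 ± 0.35 at 0% RPS and -1.71 ± 0.07 at 10% RPS (SD, n = 5 each), a difference of 0.41 with 4 of 5 libraries above all controls (exact p = 0.0159, adjusted 0.0714). Psmb10 to Psmb7 had a log2 ratio of 0.90 ± 0.12 without starch and of 1.18 ± 0.15 with 5% RPS (exact p = 0.0159, adjusted 0.0714), also with 4 of 5 above all controls. With 10% RPS it was 0.93 ± 0.16 (exact p = 0.754, adjusted 0.770). The difference in Psmb9 to Psmb6 was 0.30 with 5% RPS (exact p = 0.0952, adjusted 0.229) and 0.10 with 10% RPS (exact p = 0.564, adjusted 0.770). The smallest p that this design allows is 0.0079, which adjusts to above 0.05 where only 1 of the 9 tests reaches it, so that no single ratio could pass alone. The control libraries of Psmb8 to Psmb5 spread from -2.62 to -1.80 on the log2 scale, whereas those at 10% RPS lay between -1.80 and -1.65. Of the 50-base windows of Psmb5, 39.8% also occur in other genes, so its count is less certain than those of Psmb6 and Psmb7.

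**Figure D3:**
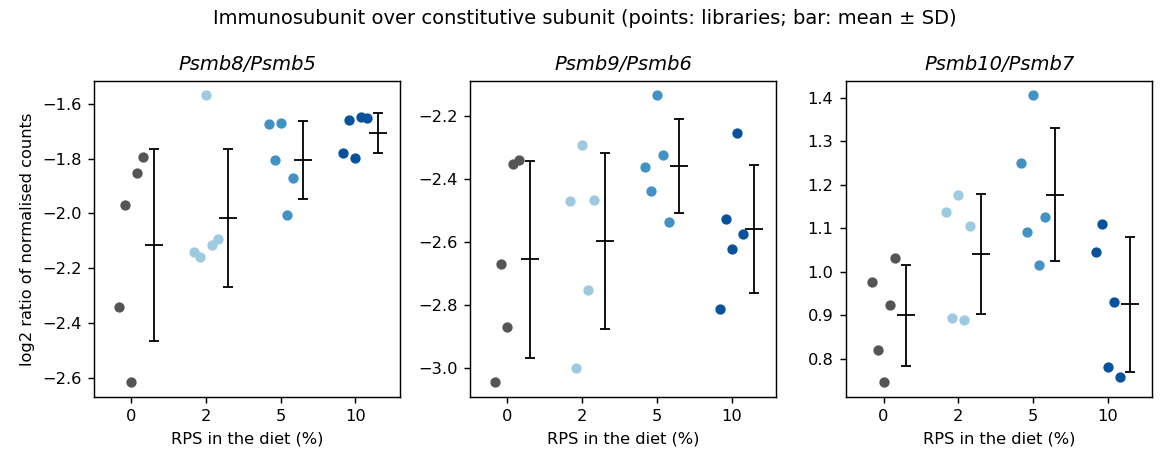
Log2 ratio of each immunosubunit to the constitutive subunit it replaces (vertical axes) by percentage of RPS, with 1 point per library and a bar for the mean ± SD of 5 libraries. Psmb8/Psmb5 lies between -1.80 and -1.65 in all libraries at 10% RPS but spreads from -2.62 to -1.80 at 0% RPS, and Psmb10/Psmb7 is highest at 5% RPS.

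Members also varied together between mice on the same diet. After diet means were subtracted from log2(normalised count + 1), the 36 pairs of members had a median Pearson's r of 0.468 over the 20 libraries, from -0.129 to 0.826. In 34 pairs r was positive, and 13 pairs had an adjusted p of 0.05 or less (100000 permutations within diets, adjusted over the 36 pairs). H2-K1 followed H2-D1 (r = 0.756, Spearman's rho = 0.770, permutation p = 0.00092 and 0.00108, adjusted 0.0110 and 0.0130). Without the 2 libraries farthest from the median of H2-K1, r was 0.73. Tap2 followed Tapbp (r = 0.826, rho = 0.830, permutation p = 0.00064 and 0.00021, adjusted 0.0110 and 0.00756, r without 2 libraries 0.666).

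Not all pairs went together. Tap1 had an r of -0.129 with H2-K1, 0.0207 with H2-D1, 0.0344 with Tap2, -0.0929 with Tapbp, 0.129 with Psmb10, 0.216 with B2m, and 0.286 with Psmb8. The r of H2-K1 and of H2-D1 with Psmb9 (0.195 and 0.0613) and with Psmb10 (0.176 and 0.164) were also low. The highest r of Tap1 was with Psmb9, with which it shares the interval printed above (r = 0.665, rho = 0.693, permutation p = 0.00257 and 0.00223, adjusted 0.0154 and 0.0197). Without the 2 libraries farthest from the median of Tap1, r was 0.624. The genes overlap on opposite strands, and whether reads were counted by strand is not stated, so that shared reads could enter both. These correlations rested in part on single libraries. In 1 of them, 2% RPS replicate 3, H2-K1, H2-D1, B2m, Tap2, Tapbp, Psmb8, and Psmb9 were at the highest value of their diet. Without it the median r was 0.317, 32 pairs were positive, and 4 pairs had an adjusted p of 0.05 or less. Those were H2-K1 with H2-D1 (r = 0.75, adjusted permutation p = 0.0281), H2-K1 with Tap2 (r = 0.791, adjusted permutation p = 0.0263), Tap2 with Tapbp (r = 0.767, adjusted permutation p = 0.0306), and Tap1 with Psmb9 (r = 0.801, adjusted permutation p = 0.00684). For every pair among H2-K1, Tap2, Tapbp, and Psmb8, r fell most when a different library, the control 0% RPS replicate 3, was left out. It then was 0.461 for H2-K1 with Psmb8, 0.584 for Tapbp with Psmb8, and 0.736 for Tap2 with Tapbp. No p was computed without that control.

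**Figure D4:**
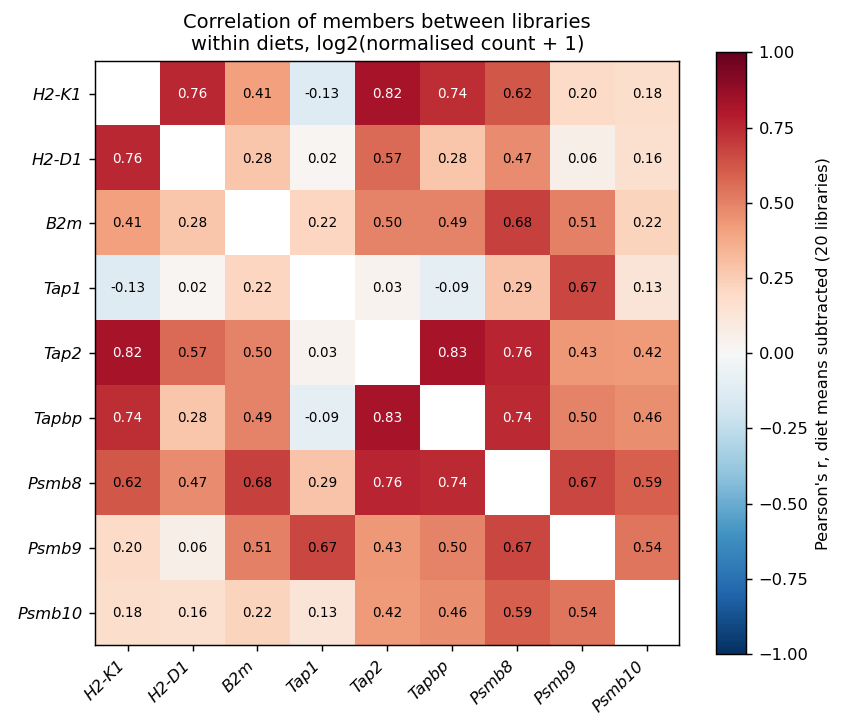
Pearson's r of each pair of members over 20 libraries after subtraction of diet means, from -1 (blue) to 1 (red). The row of Tap1 is pale except at Psmb9 (0.67), whereas H2-K1, Tap2, Tapbp, and Psmb8 form a block of values from 0.62 to 0.83.

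Outside the members, the genes most like their mean z score within diets, among 11541 genes that averaged 100 normalised counts or more, included Fbln7 (r = 0.80), Lyve1 (0.77), Retnla (0.76), Meis3 (0.75), Thsd4 (0.74), Mmrn1 (0.73), Zbtb24 (0.72), Unc93b1 (0.72), and Ifi27l2a (0.70). Lyve1 and Mmrn1 are known from lymphatic endothelium, and Unc93b1 carries Toll-like receptors that sense nucleic acids to the endosome. None of these passed at 5 or 10% RPS in DESeq2, and the likeness was measured after diet means were removed. Their Spearman's rho ran from 0.603 to 0.833. These values are the highest of many genes over 20 libraries and are given as a description.

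Among 13 other class I heavy chains analysed of 18 listed, 1 rose and none fell at 10% RPS. Of all genes tested, 2.71% rose and 1.89% fell at 10% RPS, and 1.33% rose and 0.573% fell at 5% RPS. H2-Q1, a Qa region heavy chain, averaged 587 ± 154 normalised counts in controls and 937 ± 108 with 10% RPS (SD, n = 5 each). All 5 libraries at 10% RPS (783.9 to 1077.8) lay above all controls (357.2 to 752.6). Its log2 change was 0.67 (SE 0.173, adjusted p = 0.00755, edgeR adjusted p = 0.0638), and 15.0% of its windows also occur in other genes, mostly H2-Q2. Cd1d1, which presents lipids to NKT cells, fell at 5% RPS by 0.56 on the log2 scale (adjusted p = 0.0394, edgeR adjusted p = 0.136), and its change at 10% RPS was -0.37 (adjusted p = 0.171). Cd1d1 shares 16.7% of its windows with Cd1d2. The median log2 change of this list was -0.07 at 5% RPS and -0.09 at 10% RPS, where the 9 members had 0.18 at both. One control, 0% RPS replicate 2, stood apart in several genes of this list. It was high in H2-Q6 (415.5, other controls 187.3 to 239.5) and H2-Q7 (519.6, others 220.5 to 301.8). In H2-Q1 (357.2, others 536.0 to 752.6) and H2-T3 (1444.3, others 3046.4 to 3639.0) it was low. The medians of the list were not computed without that control.

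Peptide supply and loading showed small positive values with few calls. For comparison, 1.33% of all genes tested rose at 5% RPS and 2.71% at 10% RPS. Of 15 other loading and trimming factors, only Npepps, a cytosolic aminopeptidase, rose at 10% RPS (log2 change 0.15, adjusted p = 0.0321, edgeR adjusted p = 0.125), and the medians of the list were 0.15 at 5% RPS and 0.18 at 10% RPS. Of 20 genes of the constitutive proteasome and its regulators, 3 rose at 5% RPS and 1 at 10% RPS, and none fell. Psme2, a subunit of the PA28 regulator that interferon induces, rose at 5% RPS (0.32, adjusted p = 0.0187) and at 10% RPS (0.37, adjusted p = 0.00139, edgeR adjusted p = 0.0308). Its partner Psme1 had log2 changes of 0.13 and 0.08 (adjusted p = 0.319 and 0.503). Psma2 (0.20) and Psma4 (0.17), subunits of the outer ring of the core, rose at 5% RPS (adjusted p = 0.0463 for both). At 5% RPS no gene of this list passed in edgeR (adjusted p = 0.0901 for Psme2, 0.138 for Psma2, and 0.143 for Psma4). All 20 genes of this list had positive log2 changes at 5% RPS, with a median of 0.15, and Psmb5, Psmb6, and Psmb7 were at 0.15, 0.05, and 0.09 (adjusted p = 0.343, 0.781, and 0.446).

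Of 27 genes of transcription control analysed of 29 listed, 1 rose at each of 5 and 10% RPS and none fell. Among all genes tested 1.33% rose at 5% RPS and 2.71% at 10% RPS, so these counts say little about the list. Irf8, an interferon regulatory factor, rose at 5% RPS (0.37, adjusted p = 0.0262), and Stat3, a transducer of cytokine signals, rose at 10% RPS (0.39, adjusted p = 0.019). In edgeR neither passed (adjusted p = 0.115 and 0.0732). Irf1, which binds the ISRE of class I promoters, had log2 changes of 0.25 and 0.28 at 5 and 10% RPS (adjusted p = 0.183 and 0.0857). Ciita and Ifng were not analysed here.

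Interferon response genes were counted in 2 lists, beside 1.33% of all genes tested that rose at 5% RPS and 2.71% at 10% RPS. Of 13 interferon-gamma response genes analysed of 20 listed, only Ido1, an enzyme that degrades tryptophan, rose at 10% RPS. It averaged 239 ± 95.2 normalised counts in controls and 542 ± 160.2 with 10% RPS (SD, n = 5 each), a log2 change of 1.18 (adjusted p = 0.00124, edgeR adjusted p = 0.0385). The median of this list at 10% RPS was 0.065. Of 24 interferon alpha/beta response genes analysed of 28 listed, Irf7 (1.23, adjusted p = 1.21e-06), Zbp1 (1.05, adjusted p = 0.0138), and Ifit1 (0.67, adjusted p = 0.0427) rose at 10% RPS and Zbp1 also at 5% RPS (1.08, adjusted p = 0.0205). In edgeR Irf7 passed at 10% RPS (adjusted p = 0.0105), and Ifit1 (adjusted p = 0.113) and Zbp1 (adjusted p = 0.0789 at 10% RPS and 0.126 at 5% RPS) did not. Irf7 is a regulator of the type I interferon response, Zbp1 a sensor of Z-form nucleic acids, and Ifit1 a binder of foreign RNA. Oas3 and Ifih1 passed in the trend only (adjusted p = 0.0414 and 0.0439, edgeR adjusted p = 0.0976 for both). The median of this list was 0.23 at 10% RPS.

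**Figure D5:**
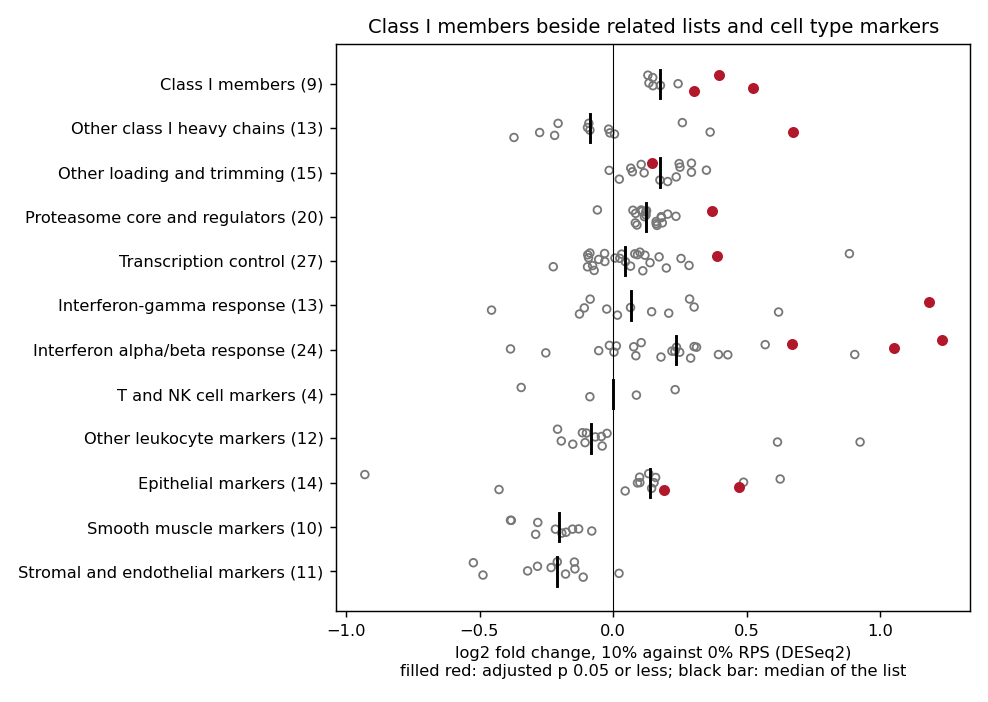
Log2 fold change at 10 against 0% RPS (horizontal axis) of the class I members and 11 other lists, with 1 point per gene, filled red at an adjusted p of 0.05 or less in DESeq2, and a black bar at the median of each list. The 9 members lie between 0.13 and 0.52, whereas Ido1 (1.18) and Irf7 (1.23) lie farthest right in the interferon lists.

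Markers of cell types were examined beside these results, since each cell type brings its own class I RNA. Of 14 epithelial markers analysed of 15 listed, Krt20, a keratin of surface colonocytes, rose at 5% RPS (0.45, adjusted p = 0.0476) and at 10% RPS (0.47, adjusted p = 0.0193). Epcam, an adhesion molecule of epithelia, rose at 10% RPS (0.19, adjusted p = 0.00666). In edgeR neither passed (Krt20 adjusted p = 0.146 and 0.0800, Epcam adjusted p = 0.0950). Over all genes tested, 1.33% rose at 5% RPS and 2.71% at 10% RPS. Of the 14 log2 changes, 11 were positive at 5% RPS and 12 at 10% RPS. Aqp8 and Slc26a3 went the other way, at -2.52 and -0.47 with 5% RPS (adjusted p = 0.151 and 0.372). With 10% RPS they were at -0.93 and -0.43 (adjusted p = 0.627 and 0.385). The summed level of the 14 ranged from 913441 to 1081091 normalised counts at 0% RPS, from 1177212 to 1253316 at 5% RPS, and from 1109763 to 1628155 at 10% RPS, and at 2% RPS from 959735 to 1341204. All sums at 5 and 10% RPS lay above all controls, but Muc2 and Car1 made up 63.4 to 73.5% of the sum in each library. The other 12 markers summed to 306184 to 374948 normalised counts at 0% RPS, 362808 to 385880 at 5% RPS, and 326602 to 431594 at 10% RPS, and these ranges overlapped. When the mean z score of these markers was added to the DESeq2 fit, an alternative chosen after seeing the data, the log2 change of Psmb8 at 10% RPS was 0.62 and still passed (adjusted p = 0.0149). In that fit H2-D1 was at 0.30 (adjusted p = 0.0912) and H2-K1 at 0.29 (adjusted p = 0.321) at 10% RPS, and neither passed. Without the score these changes were 0.40 and 0.30. With it, only Psmb10 passed at 5% RPS (0.42, adjusted p = 0.0183). In the trend with the score, Psmb8 and B2m (adjusted p = 0.0259 for both) and H2-D1 (adjusted p = 0.0495) passed, and H2-K1 did not (adjusted p = 0.164). Over all genes, 51 passed upward with the score at 10% RPS and 24 at 5% RPS, against 340 and 167 without it.

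No leukocyte marker passed. Of the T and NK cell markers 4 of 20 were analysed, with sums from 104 to 228 normalised counts at 0% RPS and from 105 to 204 at 10% RPS. Of the other leukocyte markers 12 of 21 were analysed, with sums from 8018 to 21526 at 0% RPS and from 8966 to 12494 at 10% RPS. None of these passed at any level in DESeq2 or in edgeR, and at each level 1 had an unadjusted p under 0.05 in DESeq2. Of all genes tested, 8.7%, 16.6%, and 18.8% had such a p at 2, 5, and 10% RPS. Ptprc and Cd8a, which define leukocytes and CD8 T cells, were not analysed here, so the part of T cells in these results was not tested. Of 10 smooth muscle and 11 stromal and endothelial markers, none passed in DESeq2 or in edgeR. At 10% RPS, 0 and 3 of them had an unadjusted p under 0.05 in DESeq2, beside 18.8% of all genes. The median log2 changes of the smooth muscle markers and of the stromal and endothelial markers at 10% RPS were -0.20 and -0.21. The part of these cell types in the class I results was not tested beyond the fits with marker scores. With the smooth muscle score in the fit, B2m passed in the trend (0.029 per percentage point, adjusted p = 0.0468). Over all genes, upward calls at 10% RPS were 430 with the smooth muscle score and 453 with the leukocyte score, against 340 without a score. No analysed marker of these lists was at 0 counts in any library. Listed markers that were not analysed could not be checked. The filter behind the analysed genes is not given and may itself have removed genes at 0 counts, so no conclusion is drawn from this. One control, 0% RPS replicate 2, had the highest smooth muscle score of all libraries (2.19). Without it H2-D1, Psmb8, and H2-K1 still passed at 10% RPS.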

How the data were processed

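RNA was sequenced from the proximal colon of 20 mice with stranded mRNA libraries and single-end reads. The deposited tables hold raw whole-number counts, 1 row for each Ensembl identifier. The authors removed low-quality bases and reads and mapped the rest in CLC Genomics Workbench, to GRCm39 per the labels. The annotation, the use of strand, the treatment of reads with more than 1 match, and the filter behind the 12701 genes are not given in the sources used here. Such reads could shift counts between similar or overlapping genes. Counts were not normalised by the authors, replicates were not pooled, and no authors' comparison was used.

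Libraries were grouped by the diet in their labels and numbered in order within a diet, since the labels give no replicate number. The mice are taken as separate animals. Symbols and coordinates came from GENCODE M39 (GRCm39), which holds 12682 of the 12701 identifiers. Diets were compared with DESeq2 (version 1.42.0) as in the study, in R (version 4.3.3), on all 20 libraries with diet as the only term. Wald p values were adjusted by Benjamini-Hochberg over all genes, with a pass at 0.05, and a linear fit on the percentage of RPS gave the trend. edgeR (version 4.0.16), with TMM factors, its expression filter (12366 genes), and the quasi-likelihood test, was the alternative printed beside it. All adjusted p values are from DESeq2 unless edgeR or a permutation test is named. Both tools were tested on simulated data. Subunit ratios used a pseudocount of 1.

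Members and lists were chosen with earlier results of these data known. All members were named, and from each other list up to 5 genes with the smallest adjusted p among those passing, some constitutive subunits and regulators in any case, and the genes most like the members. A gene that these rules name but that is withheld is not reported here. The correlations among members, the fit with an epithelial score, and the epithelial sum without Muc2 and Car1 were added after seeing the data. Other alternatives were TMM factors in DESeq2, a minimum of 10 counts in 5 libraries, no independent filtering, only the 2 diets compared, smooth muscle or leukocyte scores as covariates, a fold threshold, a fit without the 3 libraries with label numbers far from the rest, and fits without each library in turn. Sequences came from RefSeq (GRCm38.p6), whose coordinates are not comparable with the GRCm39 ones. Each 50-base window of GENCODE transcripts was searched in those of all other genes. Total counts ranged from 20581013 to 35083751. All members were well above a floor of 3 counts, so the spread between mice limits precision. Further steps used pandas (version 2.3.3) in Python (version 3.11.15).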

Additional observations from a re-analysis of the deposited data

Results flagged for a closer look

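Among 48 groups of 5 libraries examined (9 members and 3 subunit ratios on 4 diets), 4 held a library far from the others by Dixon's test, where chance gives about 5% of groups. In 2% RPS replicate 3, Tapbp stood at 6122.5 normalised counts (the other 4 libraries at 5051.5 to 5203.7), Psmb8 at 771.1 normalised counts (the others at 500.7 to 571.4), and the log2 ratio of Psmb8 to Psmb5 at -1.57 (the others at -2.16 to -2.095). In that library 7 of the 9 members were highest in their diet. In 0% RPS replicate 3, Psmb8 was low, at 352.7 normalised counts (the others at 500.2 to 558.1). That control was also the lowest of its diet for H2-K1, B2m, Tap2, Tapbp, Psmb9, and Psmb10, and it enters every comparison with 0% RPS. Without that control, the log2 change of Psmb8 at 10% RPS still passed, and at 5% RPS it did not (0.36 in place of 0.46, adjusted p = 0.0604). The log2 change of H2-K1 at 10% RPS was then 0.24 in place of 0.30 (adjusted p = 0.0886).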

How the results depend on the processing

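No called change of a member reversed under any alternative run, but the number that passed depended on the tool and the libraries. At 5% RPS, 3 members passed in DESeq2, 0 in edgeR (5 members had an unadjusted p under 0.05 in DESeq2, as 16.6% of all genes did), 1 with an epithelial score as covariate, and 0 with a fold threshold of 1.5 or 2. Leaving out 1 library gave 0 to 3, the 0 being without 5% RPS replicate 3, and each of 0% RPS replicates 3, 4, and 5 and 5% RPS replicates 1, 2, and 5 left only Psmb10 (1 member). At 10% RPS, 3 members passed in DESeq2, 1 in edgeR (H2-D1), 1 with the epithelial score (Psmb8), 1 without the 3 libraries outside the label run (H2-D1), and 0 with a fold threshold of 1.5 or 2. Over all genes, upward calls at 10% RPS were 340 in DESeq2 and 82 in edgeR. They were 51 with the epithelial score and 122 without those 3 libraries. At 5% RPS upward calls were 167 in DESeq2, 11 in edgeR, and 24 with the epithelial score. Leaving out 1 library gave 2 to 4 at 10% RPS and 2 to 4 in the trend, the 4 at 10% RPS being without 2% RPS replicate 3. Upward calls over all genes in the fits without 1 library ranged from 140 to 601 at 10% RPS and from 43 to 346 at 5% RPS. With only the libraries of the 2 diets, B2m passed at 10% RPS (adjusted p = 0.0170) and H2-K1 did not (adjusted p = 0.123). Between 10 and 2% RPS the count was 0, and 0 to 1 when 1 library was left out (B2m, without 2% RPS replicate 3). None of the 9 ratio differences passed under an alternative, which says little of their stability, since this design lets no single ratio pass alone. Apart from the construction of each alternative (fewer samples, a covariate, a stricter threshold), the cause was not tested. No paired analysis was possible because no replicate number in the labels ties libraries of different diets. The planned correlation of Nlrc5 with the other members was not run, as Nlrc5 was not analysed here.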
